A study of Mus musculus with 10 samples.

Results

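The genes examined here encode the enzymes of de novo ceramide synthesis and 1 regulator of the pathway, as measured in mouse pancreatic islets with and without FIT2 in β cells. They were chosen by gene name: the serine palmitoyltransferase subunits Sptlc1 and Sptlc2, the regulator Ormdl3, the reductase Kdsr, the ceramide synthases Cers2, Cers4, Cers5 and Cers6, and the desaturases Degs1 and Degs2. All 10 are among the 47340 genes of the deposited table, and all 10 are among the 13065 genes that passed the filter on low values, a mean of 1 FPKM or more in either genotype. FPKM are fragments mapped to a gene, divided by its exon length and by the size of the library. FIT2, the product of Fitm2, is a membrane protein of the endoplasmic reticulum that takes part in the formation of lipid droplets.

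Islets came from male, chow-fed mice aged 12 wk, with 5 libraries for each genotype. Floxed control (FL) mice carried Fitm2 flanked by loxP sites and no Cre recombinase. Their titles name them as floxed, while the genotype label reads wild type. βFIT2KO (KO) mice carried the same floxed Fitm2 together with Cre recombinase under the rat insulin promoter, from the line B6.Cg-Tg(Ins2-cre)25Mgn/J. Both groups thus share the floxed allele, and no library from mice with Cre and an intact Fitm2 was analysed here. Cre from this promoter acts in β cells, whereas whole islets also hold α, δ, PP, endothelial, stromal and blood cells that keep the gene. Islets recovered overnight in CMRL medium before RNA was taken, and polyadenylated RNA was sequenced as stranded single-end libraries. The study's methods describe islets taken from mice in quintuplicate; the labels name no individual mice, so each library is read here as 1 mouse, and the p-values measure the spread between these libraries.

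Ceramide is built at the endoplasmic reticulum. Serine palmitoyltransferase, a complex of SPTLC1 with SPTLC2 or SPTLC3 and small activating subunits, joins serine to palmitoyl-CoA, and ORMDL proteins restrain it. KDSR reduces the product to sphinganine, ceramide synthases attach an acyl chain whose length depends on the synthase, and dihydroceramide desaturase introduces the double bond that turns dihydroceramide into ceramide. In β cells the pathway is best known as an outlet for excess saturated fatty acid, since palmitoyl-CoA is its substrate.

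Among the 10 genes, Cers6 and Degs2 were lower in KO islets and the other 8 were not called. Cers6, a ceramide synthase that favours palmitoyl chains, fell by 16.2%, from 13.9 ± 0.451 to 11.7 ± 0.99 FPKM (mean ± SD, n = 5 in each group). Degs2, a desaturase that can also hydroxylate dihydroceramide to make phytoceramides, fell by 27.7%, from 24.8 ± 4.07 to 17.9 ± 2.01 FPKM. For both genes every KO library lay below every FL library. These are bulk measurements, in which fewer cells of a type and less RNA per cell cannot be told apart.

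Genes with an adjusted p no greater than 0.05 in limma were called, on log2(FPKM + 1), with Benjamini-Hochberg adjustment over the 13065 genes, and fold changes are given on that log2 scale as KO minus FL. The 2 calls are 20% of the 10 genes. Over all genes tested, 25.5% were called, 16.5% lower and 9.05% higher in KO, so the share among the ceramide genes is close to that background. Groups that did not overlap were found for 2 of the 10 genes, both lower in KO, against 19.1% of all genes in either direction and 12.5% in the lower direction. None of the 10 was called higher by limma, and none was by the exact Wilcoxon rank test. At an unadjusted p below 0.05 limma gave 1 higher gene, Kdsr, and 3 lower genes, Cers2, Cers6 and Degs2, which is 4 of 10 where 37.7% of all genes pass. The median log2 fold change was -0.02 over the 10 genes and -0.06 over all genes tested, with 6 of the 10 below 0 and 4 above. The direction of this background depends on the scaling: with upper-quartile scaling 1455 genes were called lower and 1675 higher, with median-ratio scaling 1530 and 1614, and the median over all genes was then 0.0039 and -0.0038. Median-ratio scaling brings that median close to 0 by construction.

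**Figure D1:**
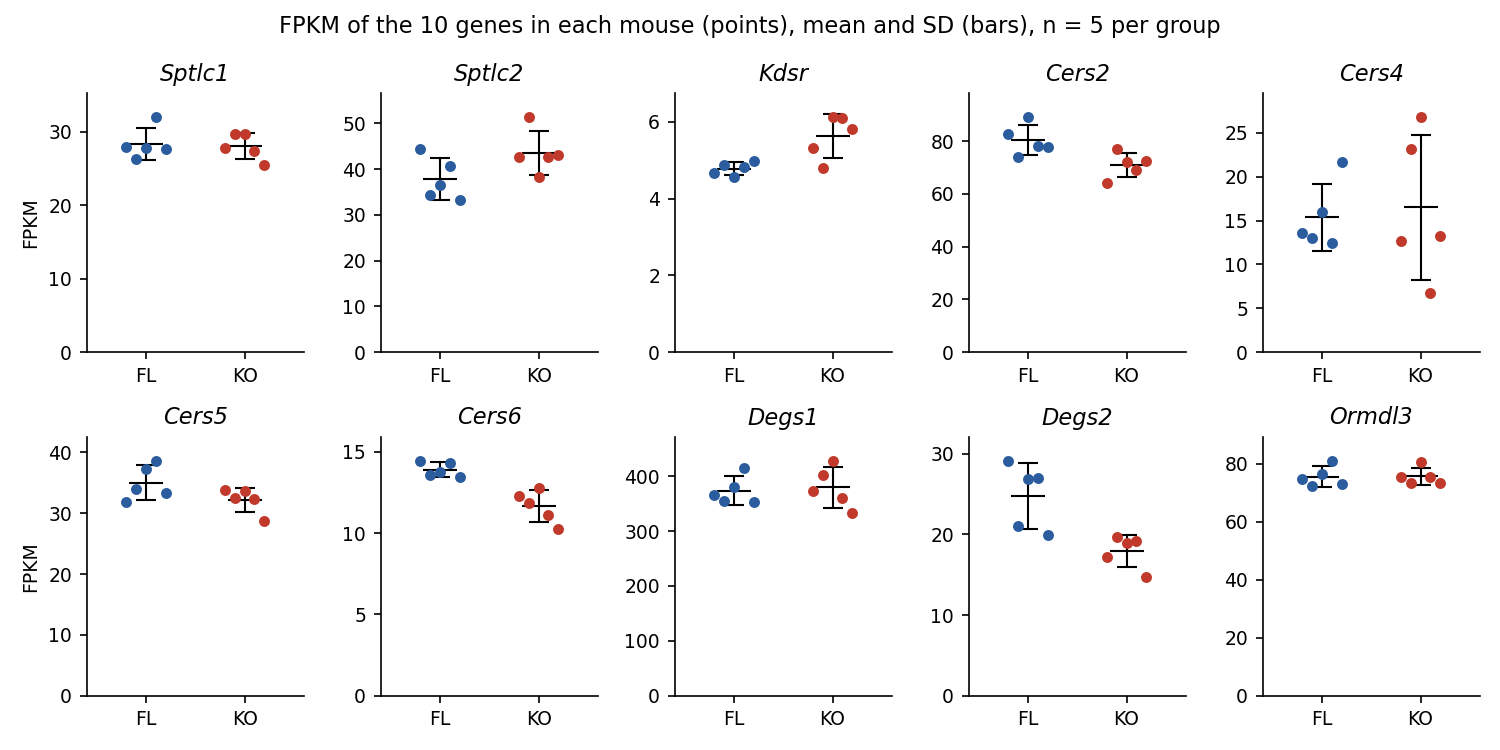
FPKM of each of the 10 genes (y axis, linear and starting at 0) in the 5 FL and 5 KO libraries (points), with the group mean and SD. For Cers6 and Degs2 all 5 KO points lie below all 5 FL points, Kdsr and Cers2 each have 4 of 5 KO points outside the FL range, and Cers4 has the widest KO spread for its level, from 6.70 to 26.8 FPKM.

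The libraries were first compared with their labels and with islet marker genes. FL libraries held 23.3 ± 9.86 FPKM of Fitm2 and KO libraries 6.95 ± 2.36, without overlap, a log2 fold change of -1.58 (SE 0.28, limma adjusted p = 0.00228). Ins1, Ins2, Iapp and Gcg, the main hormone genes of β and α cells, are listed at 0 in every library of the table, and since islets make these hormones a listed 0 in this table is not read as absence. Other markers were used, whose sums do not separate the number of cells from the RNA per cell. The summed FPKM of the β-cell marker list ran from 2273 to 2844 in FL and from 1511 to 2124 in KO, with 6 of its 7 tested genes called lower, where limma called 25.5% of all genes, 16.5% lower and 9.05% higher. The α-cell list ran from 435 to 650 in FL and from 288 to 429 in KO with 2 of 5 tested genes lower, and the δ-cell list from 4960 to 5852 and from 3993 to 5339 with 1 of 4 lower. Markers of stromal cells, leukocytes and endothelial cells were higher in KO: stromal sums were 11.9 to 20.3 in FL and 24.2 to 33.2 in KO with 5 of 5 tested genes called, leukocyte sums 46.9 to 65.1 and 85.7 to 96.9 with 2 of 4, and endothelial sums 121 to 139 and 144 to 190 with 3 of 5. In the duct list 1 of 4 tested genes was lower and 1 higher. None of 11 acinar genes, nor the PP-cell gene Ppy, was called by limma or had an unadjusted p below 0.05. The relative depth of the libraries, read from the spacing of low FPKM, was 1.41 to 2.39 in FL libraries 2 to 5 and 1.52 to 2.06 in KO, each relative to FL library 1, the shallowest.

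The first step of the pathway is catalysed by the SPTLC1 and SPTLC2 heterodimer. Sptlc1, the subunit that anchors the complex (chromosome 13, 53332748 to 53377397, minus strand, GRCm38 as for all positions here), averaged 28.4 ± 2.15 FPKM in FL against 28.05 ± 1.79 in KO (n = 5 each). Its log2 fold change was -0.01, with a 95% interval from -0.15 to 0.12, and the sign turned with the scaling of the libraries. FL libraries ran from 26.3 to 32.0 FPKM, or to 27.9 without FL 4, and KO libraries from 25.5 to 29.8 FPKM, so the groups overlapped.

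Sptlc2, the catalytic subunit (chromosome 12, 87305058 to 87388355, minus strand), measured 44.3, 34.4, 36.5, 40.8 and 33.3 FPKM in FL libraries 1 to 5. In KO libraries 1 to 5 it measured 42.7, 51.4, 38.2, 42.6 and 43.1 FPKM. The groups overlapped, with KO 2 the only KO library above the whole FL range and FL 1 above the other 4 KO libraries. The means were 37.9 ± 4.58 and 43.6 ± 4.80 FPKM, 15.1% higher in KO, and the difference did not pass (log2 fold change 0.20, SE 0.09, limma adjusted p = 0.140; exact two-sided permutation p = 0.0714). Within each library the ratio of Sptlc2 to Sptlc1, which does not depend on how libraries are scaled, was 1.34 ± 0.15 in FL and 1.56 ± 0.17 in KO (SD, n = 5), and 2 of 5 KO libraries lay above the FL range.

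Ormdl3, the endoplasmic reticulum protein that restrains serine palmitoyltransferase when ceramide is plentiful (chromosome 11, 98581256 to 98587368, minus strand), had the closest group means of the 10 genes. It measured 74.9, 72.3, 76.6, 81.2 and 73.0 FPKM in FL. The KO libraries gave 75.4, 73.4, 80.8, 75.6 and 73.5 FPKM. Both groups spanned the same narrow band, and the log2 fold change was 0.00 with a 95% interval from -0.10 to 0.11, which as a fold is 0.933 to 1.08 in FPKM + 1. The ratio of Ormdl3 to Sptlc1 was 2.67 ± 0.09 in FL and 2.71 ± 0.15 in KO.

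Kdsr, the reductase that makes sphinganine (chromosome 1, 106720459 to 106759727, minus strand), had the lowest level of the 10 and the only upward difference with an unadjusted p below 0.05. Its FL libraries 1 to 5 measured 4.66, 4.88, 4.57, 4.83 and 4.98 FPKM. Its KO libraries measured 5.31, 4.79, 6.13, 6.10 and 5.82 FPKM. The FL libraries lay close together, 4 KO libraries lay above all of them, and KO 2 lay inside the FL range. The means were 4.78 ± 0.167 and 5.63 ± 0.572 FPKM, a log2 fold change of 0.19 (SE 0.07, 95% interval 0.05 to 0.34). By limma the adjusted p was 0.0520, just outside the threshold, and the exact two-sided permutation test gave p = 0.0317, unadjusted. Leaving out KO 2 brought the adjusted p to 0.0121 and the log2 fold change to 0.24, so this single library decides the call. Each of the other ways of scaling the libraries also brought Kdsr past the threshold.

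The 4 ceramide synthases differ in the acyl chains they prefer. Cers2 makes very-long-chain ceramides, Cers4 prefers long chains, and Cers5 and Cers6 prefer palmitoyl chains. By length-corrected FPKM Cers2 was the most abundant in every library, with 55.5 ± 1.95% of the summed FPKM of the 4 genes in FL and 54.2 ± 3.71% in KO (SD, n = 5). Cers5 held 24.2 ± 1.90% and 24.7 ± 2.42%, Cers4 10.6 ± 2.43% and 12.2 ± 5.08%, and Cers6 9.63 ± 0.60% and 8.91 ± 0.76%, in FL and KO respectively. The groups overlapped for each of these shares. The study gives a different order, citing a GENEVESTIGATOR search in which CerS5 and CerS6 were the ceramide synthases most abundant in islets. It does not give the samples or the measure of that search, so the orders are not matched for either. The sum of the 4 genes averaged 145 ± 7.72 FPKM in FL against 131 ± 12.5 in KO, with 3 of 5 KO libraries below the FL range.

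**Figure D2:**
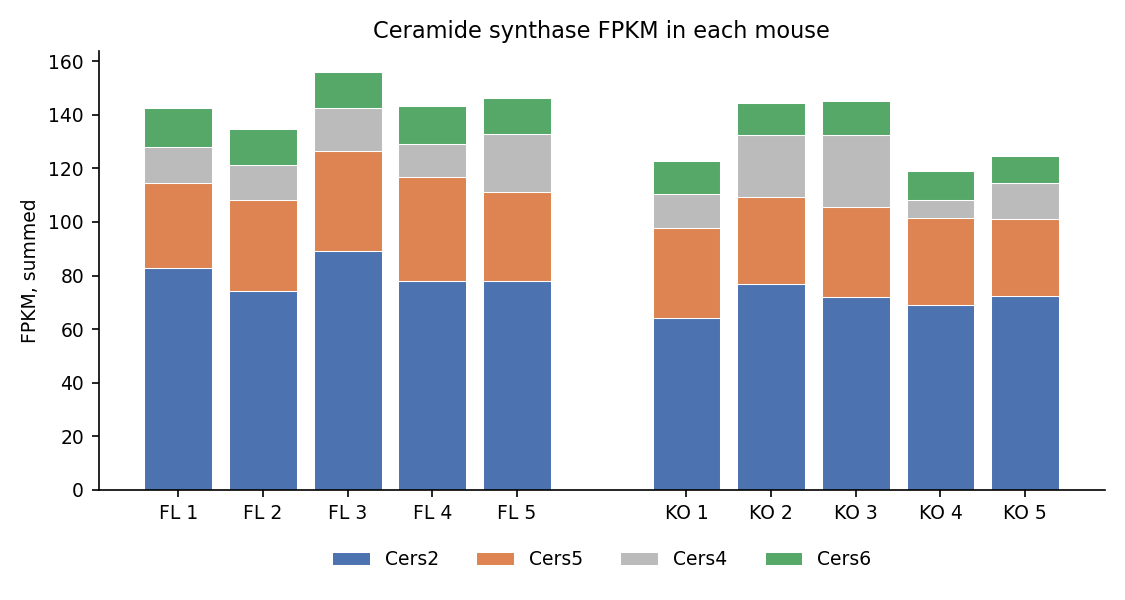
FPKM of the ceramide synthases Cers2, Cers4, Cers5 and Cers6, stacked to their sum (y axis, FPKM), in each of the 10 libraries (x axis). Of the summed FPKM, Cers2 made up 49.6% to 58.1% in every library, and the Cers4 share varied most, from 5.62% in KO 4 to 18.5% in KO 3.

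Cers6 (chromosome 2, 68861441 to 69114282, plus strand) had the smallest adjusted p of the 10 genes. It measured 14.5, 13.6, 13.7, 14.3 and 13.4 FPKM in FL libraries 1 to 5. In KO libraries 1 to 5 it measured 12.3, 11.8, 12.8, 11.1 and 10.3 FPKM. The FL libraries formed a tight band with a coefficient of variation of 3.25%, and the highest KO library, KO 3, lay below the lowest FL library. The log2 fold change was -0.24 (SE 0.06, 95% interval -0.37 to -0.11, limma adjusted p = 0.0128), and the exact two-sided permutation test gave p = 0.00794, the smallest that 5 libraries against 5 allow. As a share of the 4 ceramide synthases Cers6 overlapped between the groups, from 8.80% to 10.1% in FL and from 8.20% to 9.99% in KO. The ratio of Cers5 to Cers6 was 2.52 ± 0.21 in FL and 2.77 ± 0.10 in KO, with 4 of 5 KO libraries above the FL range.

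The window before the annotated start of Cers6 is printed because this gene has the lowest adjusted p. It is the RefSeq sequence of GRCm38.p6 at chr2:68861191-68861430, plus strand, which ends 10 bases before the RefSeq start and holds no annotated exon. Capitals mark matches to the motifs searched, a CCAAT box with 43 bases and an E-box CACGTG with 16 bases between it and the start.
Cers6: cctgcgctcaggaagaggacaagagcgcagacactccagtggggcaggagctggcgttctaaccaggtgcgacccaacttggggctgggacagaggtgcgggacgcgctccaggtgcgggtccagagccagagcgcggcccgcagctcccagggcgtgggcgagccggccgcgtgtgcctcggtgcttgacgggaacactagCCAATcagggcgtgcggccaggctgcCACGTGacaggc
Its GC content is 69.6%.

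The gene patterns closest to Cers6 were found as the root mean square difference in log2(FPKM + 1), centred on each gene, over the 10 libraries. They were Slc30a9 at 0.0310, Rnf14 at 0.0336, Zfp59 at 0.0355, Ncbp1 at 0.0374 and Dnajc27 at 0.0411. Slc30a9 is a member of the zinc transporter family, Rnf14 is a ubiquitin ligase and Ncbp1 binds the mRNA cap.

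Cers2 (chromosome 3, 95314791 to 95323599, plus strand) measured 82.7, 74.1, 89.1, 78.0 and 77.9 FPKM in FL libraries 1 to 5. In KO libraries 1 to 5 the values were 64.1, 76.8, 71.98, 69.1 and 72.5 FPKM. All KO libraries except KO 2 lay below the lowest FL library, FL 2. The means were 80.4 ± 5.76 and 70.9 ± 4.69 FPKM, with a log2 fold change of -0.18 (SE 0.06, 95% interval -0.32 to -0.04). The limma adjusted p was 0.0582 and the exact two-sided permutation p was 0.0159, unadjusted. Without FL 2 the adjusted p was 0.0454, and without KO 2 it was 0.0342, so either library decides the call. The other 4 ways of scaling the libraries moved Cers2 the other way, to log2 fold changes between -0.14 and -0.11 with adjusted p from 0.176 to 0.195 in limma. Exons of Cers2 overlap Setdb1 by 75 bases and 6330562C20Rik by 144 bases on the opposite strand, and whether reads were counted by strand is not given in the sources used here.

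Cers4 (chromosome 8, 4493026 to 4531680, plus strand) was the most variable of the 10 genes. In FL libraries 1 to 5 it measured 13.6, 13.1, 16.02, 12.5 and 21.7 FPKM. In KO libraries 1 to 5 it measured 12.7, 23.1, 26.8, 6.70 and 13.3 FPKM. KO 4 had the lowest and KO 3 the highest value of all libraries, so the KO group spanned the FL group on both sides, and the coefficient of variation was 24.6% in FL and 49.9% in KO. The means were 15.4 ± 3.78 and 16.5 ± 8.24 FPKM, higher in KO, whereas the log2 fold change was -0.02, so mean and log scale differ in sign. Its 95% interval ran from -0.70 to 0.66, the widest of the 10 genes, and the sign of the log2 fold change turned with the scaling of the libraries. A change of 1.5-fold in either direction lies inside that interval, which runs from 0.617 to 1.58 as a fold. Its exons overlap 886 bases of Vmn2r-ps89 and 214 bases of Gm36956 on the opposite strand.

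Cers5 (chromosome 15, 99734881 to 99772885, minus strand) averaged 35.0 ± 2.86 FPKM in FL against 32.2 ± 2.02 in KO. FL libraries ran from 31.9 to 38.7 FPKM and KO libraries from 28.8 to 33.8 FPKM, so the groups overlapped, with KO 5 the only KO library below the FL range. The log2 fold change was -0.12 with a 95% interval from -0.26 to 0.03 (limma adjusted p = 0.216). It was between -0.07 and -0.05 under the 4 other scalings, and -0.08 without KO 5. Together Cers5 and Cers6 held 33.9 ± 2.15% of the ceramide synthase sum in FL and 33.6 ± 3.14% in KO.

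Degs1 and Degs2 encode the desaturases. Degs1, the main dihydroceramide desaturase (chromosome 1, 182275772 to 182282804, minus strand), was the most abundant of the 10 genes, with 374 ± 25.7 FPKM in FL against 379 ± 37.2 in KO. Its libraries ran from 353 to 415 FPKM in FL and from 332 to 429 FPKM in KO, so the KO range enclosed the FL range. The log2 fold change was 0.02 with a 95% interval from -0.14 to 0.18.

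Degs2 (chromosome 12, 108678711 to 108702315, minus strand) had the largest fold change of the 10 genes. It measured 29.2, 21.04, 26.9, 27.0 and 19.9 FPKM in FL libraries 1 to 5. In KO libraries 1 to 5 it measured 17.2, 19.6, 19.0, 19.1 and 14.8 FPKM. FL 2 and FL 5 lay well below the other FL libraries and only just above the highest KO library, KO 2. The log2 fold change was -0.44 (SE 0.11, 95% interval -0.69 to -0.19, limma adjusted p = 0.0173), and the exact two-sided permutation p was 0.00794. Degs2 was 5.33% to 7.39% of the summed FPKM of Degs1 and Degs2 in FL and 4.24% to 5.04% in KO, so this share, taken within each library, did not overlap either. Exons of Degs2 overlap those of Evl on the opposite strand over 278 bases, 10.8% of the exon length of Degs2. Evl averaged 16.6 FPKM in FL against 15.5 in KO (limma adjusted p = 0.179).

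The window before Degs2 is shown for comparison with that of Cers6, since these are the called genes. It is the RefSeq sequence of GRCm38.p6 at chr12:108702317-108702556, printed 5′ to 3′ on the minus strand, and it too ends 10 bases before the RefSeq start with no annotated exon. Capitals mark 4 GC boxes, GGGCGG, read here on the other strand as CCGCCC, with 88, 76, 48 and 29 bases between each and the start.
Degs2: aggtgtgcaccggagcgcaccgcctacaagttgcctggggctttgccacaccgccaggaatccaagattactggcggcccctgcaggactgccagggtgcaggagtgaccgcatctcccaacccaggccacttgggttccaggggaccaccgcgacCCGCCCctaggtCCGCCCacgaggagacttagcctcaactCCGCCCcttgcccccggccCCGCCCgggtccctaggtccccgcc
Its GC content is 69.2%, and no CCAAT box or E-box was found in it. Windows of 240 bases were searched on both strands for the TATA box (TATAAA), the CCAAT box (CCAAT), the GC box (GGGCGG), the E-box (CACGTG), the core of the cyclic AMP response element (TGACGT) and a homeodomain core (TAATTA). No matches overlapped in the windows of Cers6 and Degs2, the only windows checked for this. All 10 genes matched the RefSeq table, with 11 windows between them. Of these, 8 hold a GC box, 4 a CCAAT box, 3 an E-box and 1 the cyclic AMP core, and neither a TATA box nor the homeodomain core was found. Of all 32851 windows, 31.3% hold a GC box, 33.0% a CCAAT box, 5.69% an E-box, 6.09% the cyclic AMP core, 12.1% a TATA box and 4.77% the homeodomain core. Thus the called genes share no motif of those searched in these windows.

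**Figure D3:**
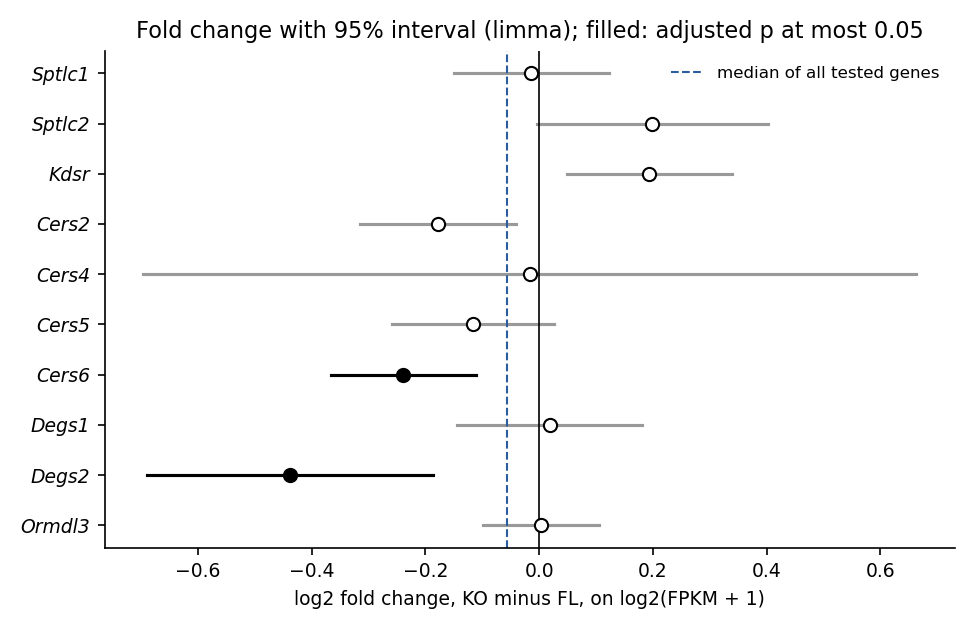
Log2 fold change, KO minus FL, on log2(FPKM + 1) for each of the 10 genes (points), with its 95% interval from limma (bars). Degs2 at -0.44 and Cers6 at -0.24 are the called genes, while the intervals of Kdsr and Cers2 also leave out 0 but their adjusted p is above 0.05.

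Both called genes moved alongside the cell markers given above. The sums of β-cell and of α-cell markers were lower in every KO library than in any FL library, and the sums of stromal, leukocyte and endothelial markers were higher in every KO library. Their part in the Cers6 and Degs2 results was not tested. KO 5 had the lowest Cers6 and the lowest Degs2 and also the highest acinar sum, 22564 FPKM, where the other KO libraries ran from 3046 to 9185 and FL from 4611 to 12358. Without KO 5 the Cers6 log2 fold change was -0.20 (limma adjusted p = 0.0200) and that of Degs2 -0.37 (limma adjusted p = 0.0377).

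In FL the mean levels ran in the order Degs1, Cers2, Ormdl3, Sptlc2, Cers5, Sptlc1, Degs2, Cers4, Cers6 and Kdsr, from percentile 98.4 to percentile 25.2 of the tested genes. The mean of Degs1 was 78.2 times that of Kdsr. Neighbours whose FL ranges did not overlap were Degs1 and Cers2, Ormdl3 and Sptlc2, and Cers6 and Kdsr, while the other neighbouring pairs overlapped. In KO, Ormdl3 stood above Cers2, but their ranges overlapped there as they did in FL, and the rest of the order was the same. The steps from Degs1 to Ormdl3, Cers2 to Sptlc2, Sptlc2 to Cers5, Sptlc1 to Degs2, and Cers6 to Kdsr were free of overlap in KO.

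Around these 10 genes stand the genes that feed, regulate or drain the pathway, read as 5 lists with 44 genes in all. Of the 37 that were tested, 15 were called, 7 lower and 8 higher in KO, or 40.5% beside the background of 25.5%, and their median log2 fold change was -0.03. Groups that did not overlap were found for 7 of the 37, or 18.9% beside 19.1% of all genes, so by that measure the lists do not stand above the background. The FL and KO ranges of the other 8 called genes overlapped. Among other subunits and regulators, 1 of 4 tested genes was called. Rtn4, whose product Nogo-B restrains serine palmitoyltransferase, rose from 297 ± 20.5 to 351 ± 37.3 FPKM (log2 fold change 0.24, limma adjusted p = 0.0448). The small activating subunit Sptssa had the most negative log2 fold change of that list, -0.29, with 57.5 ± 10.3 FPKM in FL against 46.6 ± 7.07 in KO (limma adjusted p = 0.120). Without FL 4, its highest library at 75.5 FPKM, the log2 fold change was -0.19. The Ormdl3 paralogs Ormdl1 and Ormdl2 had log2 fold changes of 0.15 and -0.08 and were not called. Ormdl1 passed with sample weights only (0.24, limma adjusted p = 0.0280). Ormdl2 ran from -0.12 to -0.02 leaving out each library. Sptlc3, the alternative catalytic subunit, is also listed at 0 in every library, which is likewise not read as absence, and Sptssb, Cers1 and Cers3 lay under the filter on low FPKM.

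Substrate genes moved in both directions, and the counts that follow stand beside the 25.5% of all genes called. In serine synthesis 1 of 3 tested genes was called, the aminotransferase Psat1, which fell from 38.9 ± 4.75 to 31.1 ± 1.21 FPKM (log2 fold change -0.31, limma adjusted p = 0.0116), while Phgdh was at 0.04. In palmitoyl-CoA supply and binding 4 of 9 tested genes were called. The acyl-CoA synthetase gene Acsl1 was lower (-0.38), Acsl4 (0.34) and Acsl5 (0.37) were higher, and Dbi, which encodes the acyl-CoA binding protein, rose from 112 ± 4.92 to 146 ± 6.40 FPKM (log2 fold change 0.39). In fatty acyl-CoA elongation 4 of 11 tested genes were called, with Elovl5 (-0.31), the dehydratase gene Hacd2 (-0.29) and the reductase gene Tecr (-0.17) lower and Elovl6, which extends palmitoyl-CoA, higher at 8.78 ± 0.392 against 6.83 ± 0.346 FPKM (0.32). Under each of the 4 other scalings Tecr lost its call, with log2 fold changes between -0.13 and -0.10 and limma adjusted p from 0.0608 to 0.0929.

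Genes of the routes out of ceramide were called in 5 of 10 tested, with 2 lower and 3 higher, where 25.5% of all genes were called, 16.5% lower and 9.05% higher. The ceramide kinase gene Cerk fell from 43.4 ± 1.82 to 35.4 ± 2.02 FPKM without overlap (log2 fold change -0.29, limma adjusted p = 0.00218), and Col4a3bp, which encodes the ceramide transfer protein CERT, was at -0.18 (limma adjusted p = 0.0413). Under each of the other 4 scalings Col4a3bp lost its call, with log2 fold changes between -0.14 and -0.12 and limma adjusted p from 0.0801 to 0.117. The sphingomyelin synthase gene Sgms1 (0.37) and the ceramidase genes Asah2 (0.45) and Acer2 (0.26) were higher. Blocking same-numbered libraries in limma lowered the calls over all genes from 3333 to 2368, although replicate numbers were not found to pair the libraries. With this block Sgms1, Asah2 and Acer2 lost their calls at unchanged fold changes (limma adjusted p from 0.0569 to 0.0690). Col4a3bp lost its call there as well (limma adjusted p = 0.109). The exact Wilcoxon rank test called none of these 4 genes either, while Cerk was called in both. With 5 libraries a group that test called 2500 of all genes, as many as had groups without overlap. It thus repeats the overlap of the groups and is not a separate check. These lists were not independent of earlier results of these data, and the cell markers above moved with them too, with their part not tested. Among the called genes of these lists, Col4a3bp, Rtn4 and Acsl4 lost their calls in the most alternative settings.

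**Figure D4:**
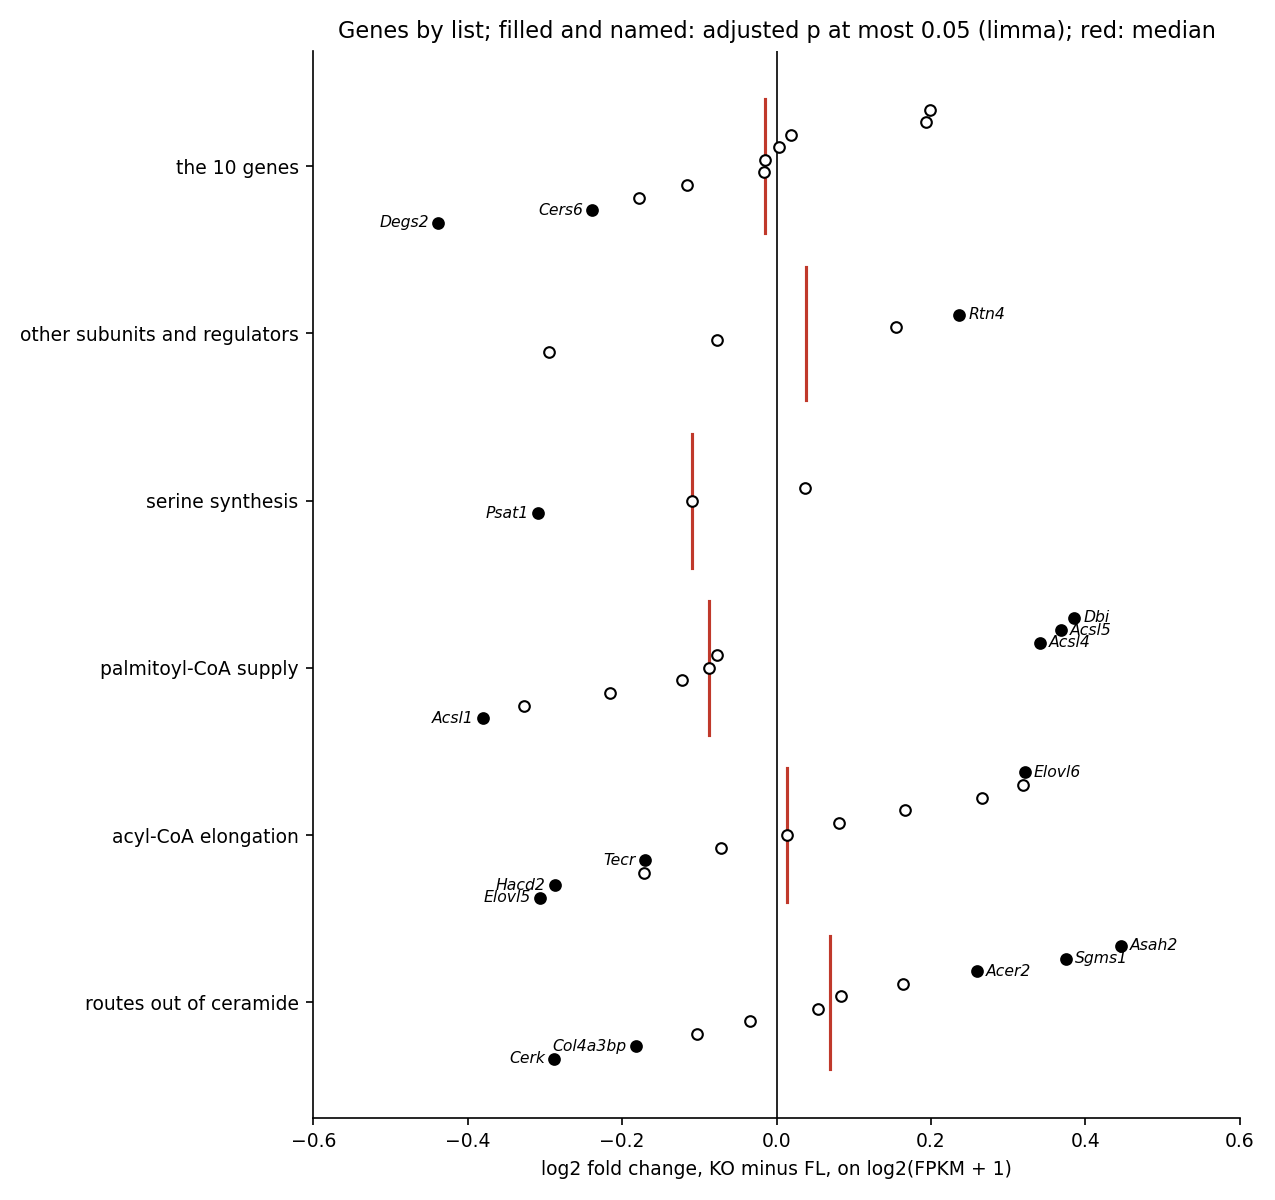
Log2 fold change, KO minus FL, of every tested gene in the 10 ceramide synthesis genes and the 5 lists around them (rows). Filled, named points passed the limma test at an adjusted p of 0.05 or less and red lines are list medians, which lie between -0.11 and 0.07, with called genes on both sides of 0 in the lists of palmitoyl-CoA supply, elongation and routes out of ceramide.

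At the adjusted p of 0.05 the calls of Cers6 and Degs2 held in all 23 alternative settings tried for each gene. In the analysis as reported neither gene passed a stricter adjusted p of 0.01, and neither reached a 1.5-fold change. Cers6 ranged from -0.27 to -0.18 and Degs2 from -0.51 to -0.37 in log2 fold change. Kdsr and Cers2 lay close to the threshold and passed in some settings only.

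**Figure D5:**
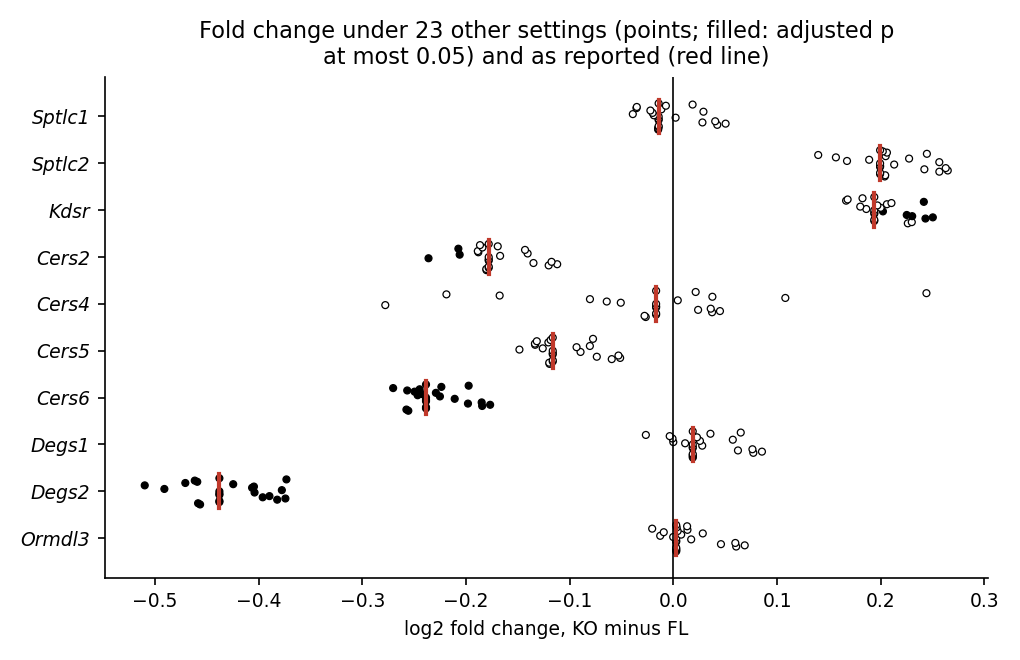
Log2 fold change, KO minus FL, of each of the 10 genes as reported and under the 23 alternative settings. Filled points passed at an adjusted p of 0.05 or less. Cers6 and Degs2 are filled in every setting, Kdsr and Cers2 in some, and the points of Cers4 reach from -0.28 to 0.24. The red line marks the reported value.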

How the data were processed

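Per the labels, 5 FL and 5 KO RNA-seq libraries of islets were aligned with STAR 2.5.2a to GRCm38 (mm10) and quantified with Cuffnorm 2.2.1. The scaling option, the use of strand in counting and the annotation release are not given in the sources used here. The authors deposited FPKM, 1 column per library, for 47340 genes, of which 22548 are at 0 in all libraries. FPKM hold no read numbers, so no counting error was computed, and absolute depth is unknown. Of the gene identifiers 46927 match GENCODE M21 without their version, including all 10 ceramide genes, 8 of them with the version. Those of Sptlc1 and Degs2 differ in version, so their positions are those of the later model.

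The main test was limma (version 3.58.1, under R 4.3.3; lmFit and eBayes with trend, no covariate) of KO against FL on log2(FPKM + 1), keeping genes whose mean reached 1 FPKM in either group. The pseudocount of 1 understates the changes of low genes. Genes with a Benjamini-Hochberg adjusted p no greater than 0.05 were called, and the ceramide genes were read from this fit. Single genes were also compared by exact two-sided permutation tests of all 252 splits. The genes named are the 10 ceramide genes, Fitm2, the called genes and the extremes of each pathway list, and the 5 genes closest in pattern to Cers6. Members and lists were chosen with earlier results of these data known. Alternatives were other pseudocounts, filters, scalings, limma options, thresholds, a rank test, a replicate block and leaving out each library. Tested on simulated data, the fit called 70 of 100 genes changed by 0.5 and 96 of 100 changed by 1 on the log2 scale, and 5 of 12512 unchanged genes. Summaries used pandas 2.3.3 and numpy 2.4.6 under Python 3.11.15, and plots matplotlib 3.10.9.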

Additional observations from a re-analysis of the deposited data

Results flagged for a closer look

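In 6 of the 76 groups of 5 libraries examined, over 30 genes and the ratios between them, 1 library stood apart by Dixon's criterion, where chance alone gives about 3.8. Sptlc1 was 32.0 FPKM in FL 4, with the other FL libraries at 26.3 to 27.9. Cers5 was 28.8 FPKM in KO 5, below the 32.3 to 33.8 of the other KO libraries. The Cers4 share of the ceramide synthases was 14.8% in FL 5 and 8.69% to 10.3% in the rest of FL. The ratio of Sptlc2 to Sptlc1 was 1.59 in FL 1, above the 1.21 to 1.31 of the other FL libraries. Outside the 10 genes, Sptssa was 75.5 FPKM in FL 4 against 50.8 to 56.4 in the other FL libraries, and Dbi was 135 FPKM in KO 3 against 146.7 to 151.1 in the other KO libraries. What sets these libraries apart was not tested.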

How the results depend on the processing

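Over all genes 3333 were called, 2150 lower and 1183 higher (64.5% lower), 639 with a change of at least 1.5-fold added, 1666 at an adjusted p of at most 0.01, and 2545 to 3427 leaving out each library. The lower share was 48.7% with median-ratio scaling, 46.5% with upper-quartile scaling, 52.4% with the same sum (TPM) and 53.3% with quantiles. Of the 10 ceramide genes 2 were called, 0 with the 1.5-fold threshold, 0 at the stricter adjusted p, 3 with each of these scalings or without a trend (Kdsr added), 4 with sample weights (Kdsr and Cers2 added), and 2 to 4 leaving out each library, with 4 without KO 2. Kdsr passed at log2 fold changes of 0.24 (median ratio), 0.25 (upper quartile), 0.23 (TPM), 0.23 (quantiles), 0.19 (no trend) and 0.20 (weights), and Cers2 at -0.24 (weights). Leaving out each library, Kdsr ran from 0.17 to 0.24 and Cers2 from -0.21 to -0.14. Signs turned for Sptlc1, at 0.042 (median ratio), 0.050 (upper quartile), 0.028 (TPM), 0.040 (quantiles) and 0.0021 (weights), and for Cers4, at 0.037, 0.045, 0.024 and 0.036 in the same 4 scalings. Leaving out each library, Sptlc1 ran from -0.039 to 0.029, Cers4 from -0.22 to 0.24, Degs1 from -0.027 to 0.065, Ormdl3 from -0.020 to 0.028 and Phgdh from -0.0041 to 0.079, with Phgdh at -0.025 under weights. The causes were not tested. Adjusted p for Cers6 ran from 0.00752 to 0.0415 and for Degs2 from 0.0089 to 0.0439. Replicate numbers were not found to pair the libraries, with correlations between same-numbered FL and KO libraries from -0.102 to 0.00305. With the replicate block 2368 genes were called, Cers6 and Degs2 among them (adjusted p 0.0342 and 0.0189), and no FL library correlated best with the KO library of its own number. Of the called genes of the pathway lists, Rtn4, Acsl1, Acsl4, Tecr, Col4a3bp, Sgms1, Asah2 and Acer2 lost their calls with the block.

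Of the 23 alternative settings Col4a3bp lost its call in 15, Rtn4 in 12 and Acsl4 in 11, while Acsl1, Tecr, Sgms1, Asah2 and Elovl5 lost theirs in 1 to 6. Acer2, which lies under the filter at 5 FPKM, lost its call in 5 of 22. FPKM without read numbers limit what can be said of the low genes, Kdsr among the 10. The intervals of Sptlc1, Sptlc2, Cers4, Cers5, Degs1 and Ormdl3 include 0 and bound what 5 libraries a group can show.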
